A study of Caenorhabditis elegans with 8 samples.

Results

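The ABC transporter genes of C. elegans were followed across 4 groups of whole-animal RNA. They were taken as every gene whose symbol begins with pgp-, mrp-, haf-, abt-, wht- or pmp-, 1 pgp gene being left out by the rule. This gave 46 genes of the 46726 in the tables: 13 pgp, 8 haf, 8 mrp, 5 pmp, 4 abt and 8 wht genes, all protein-coding. The strains were the wild type and hizr-1(am286), a loss-of-function allele of the nuclear receptor gene hizr-1, in a strain derived from N2. Mixed-stage animals grown for 4 days were moved for 16 to 18 h at 20 °C to minimal agar plates with dense E. coli OP50, either without cadmium or with cadmium chloride at 100 mM, as the labels write the dose, a unit that could not be checked here. Each of the 4 groups (wild type, wild type with cadmium, mutant, mutant with cadmium) held 2 samples, each pooled from 10 plates. All stages and tissues of a culture are mixed in each sample, and a single allele stands for the loss of hizr-1.

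ABC transporters use ATP to move substrates across membranes. The pgp genes encode P-glycoproteins of the ABCB type and the mrp genes transporters of the ABCC type, both known for exporting drugs, toxins and, for ABCC proteins, glutathione conjugates. The haf genes encode short ABCB proteins that work as dimers, and the pmp genes ABCD transporters, a type known from the peroxisomal membrane. The abt genes encode ABCA proteins and the wht genes ABCG proteins, the last 2 groups having relatives known for moving lipids. In C. elegans, loss of pgp-1 and mrp-1 is known to make animals sensitive to cadmium, and HIZR-1 is known to activate genes in high zinc.

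Total counts ran from 17681352 to 29586507 per library. The library labels were checked with hizr-1 itself, which had 57 and 52 reads in the wild type and 101 and 77 in the wild type with cadmium. It had 18 and 7 reads in the mutant and 20 and 18 in the mutant with cadmium, so the mutant libraries were lowest throughout. Of the 46 genes, 44 passed the filter on low counts and were tested. The others were haf-8, with 0 or 1 read in each library, and pgp-7, with 2 to 6 reads. With 15818 genes tested, a gene is said to have risen or fallen where its adjusted p was under 0.05.

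Transcript levels per length (RPKM, CPM per kilobase of exon, with TMM-scaled library sizes, CPM being counts scaled to the library's total) spread widely. Over the 8 libraries, 18 of the 46 genes averaged above 10 RPKM, 20 lay between 1 and 10, and 8 were below 1. The highest was mrp-4 at 93.6 RPKM, ranging from 77.2 to 119, ahead of haf-2 at 69.7 RPKM, mrp-7 at 46.5, pmp-5 at 39.8 and haf-3 at 39.3. The highest pgp gene was pgp-2, which is known for its role at lysosome-related gut granules, at 16.1 RPKM. The highest wht gene was wht-2 at 37.3 RPKM and the highest abt gene was abt-4 at 9.88. Of the 18 genes above 10 RPKM, 5 were haf, 4 mrp, 4 pmp, 3 pgp and 2 wht genes, and none was an abt gene. In the median library, mrp genes made up 31.2% of the summed RPKM, haf genes 29.03%, pmp genes 15.5%, wht genes 12.2%, pgp genes 9.80% and abt genes 2.58%.

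**Figure D1:**
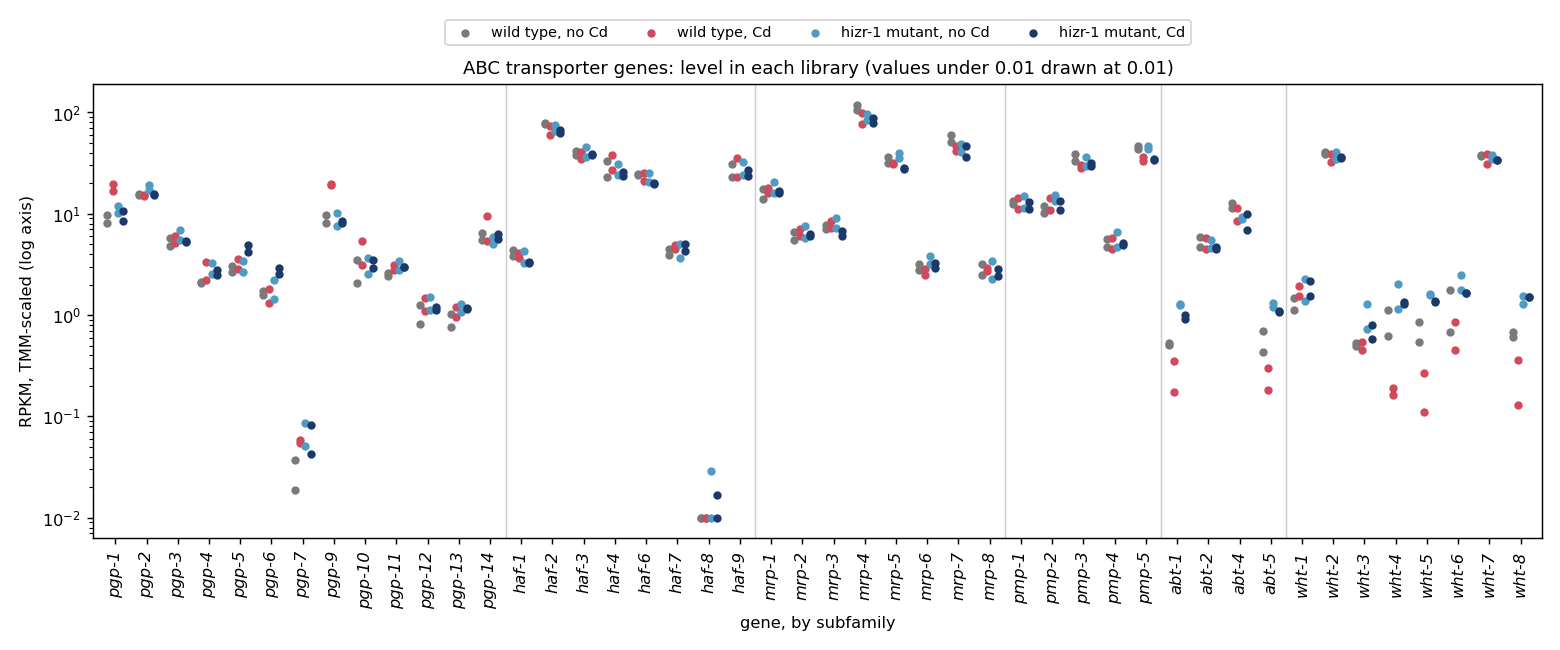
RPKM with TMM-scaled library sizes (y axis, log scale) of each of the 46 genes (x axis, grouped by subfamily), with 1 point per library coloured by group. Values below 0.01, which belong to haf-8, are drawn at 0.01. The genes spread from mrp-4, at 93.6 on average, to haf-8, and pgp-1 and pgp-9 stand apart in the wild type with cadmium.

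The summed level of the pgp genes was higher in the wild type with cadmium than in the other 3 groups. The sum was 61.8 and 54.9 RPKM in the wild type, 88.8 and 78.1 in the wild type with cadmium, 60.02 and 72.8 in the mutant, and 65.1 and 61.6 in the mutant with cadmium. The wild-type cadmium libraries lay above all 6 others. Most of this gap lay in pgp-1 and pgp-9, which together had 17.8 RPKM as a mean in the wild type and 37.97 in the wild type with cadmium. The other 11 pgp genes summed to 42.4 and 38.8 RPKM in the wild type, 49.6 and 41.4 with cadmium, 42.3 and 50.7 in the mutant, and 46.3 and 44.7 in the mutant with cadmium, and here the wild-type cadmium libraries did not stand above the mutant libraries. The summed mrp level was 237 ± 22.5 RPKM (SD, n = 2) in the wild type and 201 ± 16.2 in the wild type with cadmium, and 213 ± 24.9 in the mutant and 187 ± 14.2 in the mutant with cadmium. For pmp genes the corresponding means were 110 and 94.6 RPKM in the wild type and 112 and 94.1 in the mutant. The sums of the haf genes were 205 and 198 RPKM in the wild type without and with cadmium, and 198 and 181 in the mutant. The sums of abt and wht genes lay between 15.1 and 18.4 RPKM and between 74.4 and 84.0 RPKM as group means. No test was run on these sums.

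**Figure D2:**
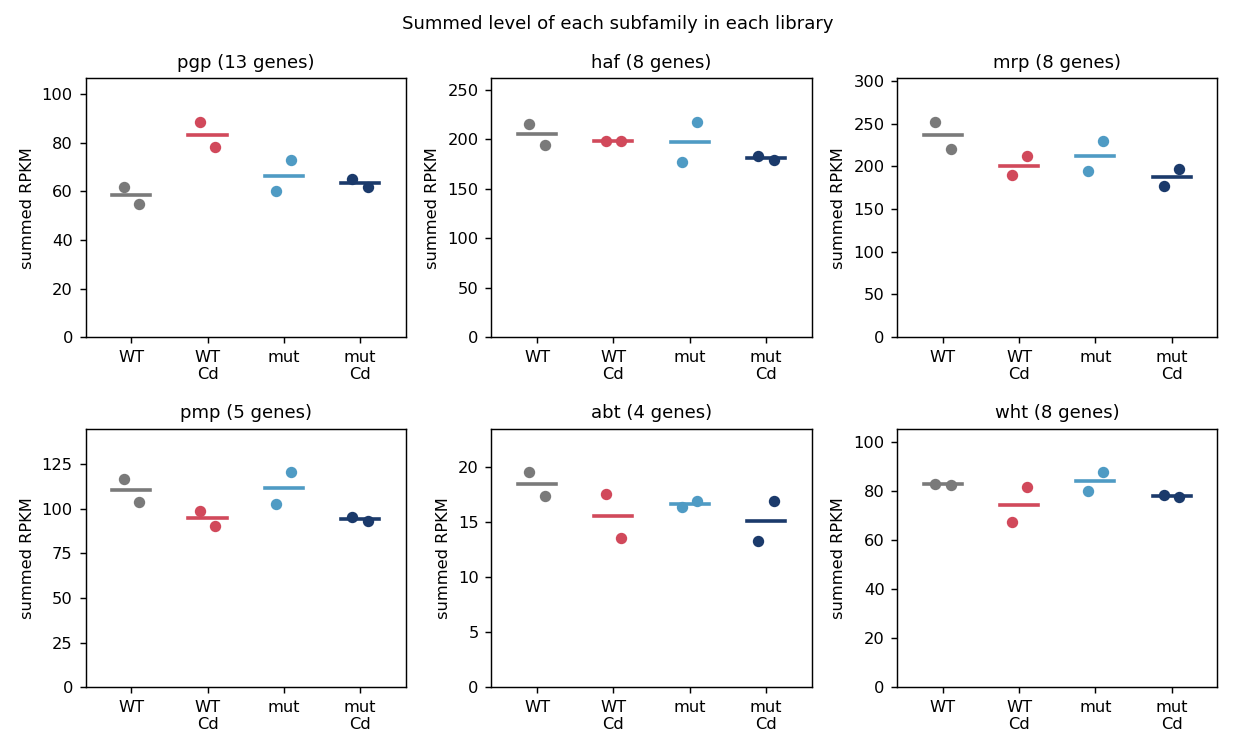
Summed TMM-scaled RPKM of each subfamily (y axes, from 0) in the wild type (WT), the wild type with cadmium (WT Cd), the mutant (mut) and the mutant with cadmium (mut Cd). Points are single libraries and lines are means of 2. The pgp sums of 88.8 and 78.1 in the wild type with cadmium lie above the other 6 libraries, and pgp-1 and pgp-9 together make up a mean of 17.8 of the sum in the wild type and 37.97 in that group.

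With cadmium in the wild type, 2 of the 44 tested genes rose and none fell. Both are pgp genes, pgp-1 and pgp-9. Over all tested genes 0.284% passed in either direction, 0.234% rose and 0.0506% fell. The median log2 change was -0.03 for the 44 genes and -0.01 for all genes tested. In whole-animal samples, fewer cells of a type and less RNA per cell cannot be told apart.

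The gene pgp-1, an apical intestinal P-glycoprotein, is WBGene00003995 on chromosome IV, 12591696 to 12599169 on the minus strand of WBcel235, in 14 exon blocks. Its TMM-scaled CPM values were 39.6 and 32.9 in the wild type and 81.5 and 69.4 in the wild type with cadmium. The mutant had 41.8 and 48.9 CPM, and 43.9 and 34.9 with cadmium. The wild-type cadmium libraries lay above all 6 others. The group means were 36.3 ± 4.73 CPM, 75.4 ± 8.52, 45.3 ± 5.02 and 39.4 ± 6.37 (SD, n = 2 each, in the order wild type, wild type with cadmium, mutant, mutant with cadmium). The log2 change with cadmium in the wild type was 1.06 ± 0.176 (SE), or 2.08-fold, with an adjusted p of 0.0286. In the mutant the cadmium change was -0.20, with a 95% interval of -0.58 to 0.18, and it did not pass the test.

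The gene pgp-9, WBGene00004003 on chromosome V from 17755897 to 17764751 on the plus strand in 11 exon blocks, had much the same profile. Its CPM values were 39.0 and 32.3 in the wild type and 77.1 and 78.9 in the wild type with cadmium. The mutant had 30.2 and 40.4 CPM, and 32.4 and 33.7 with cadmium. Here too the wild-type cadmium libraries lay above the other 6. The log2 change with cadmium in the wild type was 1.13 ± 0.174, or 2.19-fold, with an adjusted p of 0.0176. In the mutant it was -0.09, with a 95% interval of -0.47 to 0.28.

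Whether the cadmium effect of these genes differed between genotypes was tested as an interaction, in which the wild type's cadmium effect is subtracted from the mutant's. For pgp-1 it was -1.26 ± 0.248 on the log2 scale with an unadjusted p of 0.000255 and an adjusted p of 0.183. For pgp-9 it was -1.22 ± 0.246, with an unadjusted p of 0.000296 and an adjusted p of 0.195. Neither interaction passed after adjustment over all genes, although DESeq2 called both. Among animals on cadmium, both genes were lower in the mutant than in the wild type, with log2 differences of -0.94 ± 0.175 for pgp-1 (adjusted p = 0.0114) and -1.24 ± 0.175 for pgp-9 (adjusted p = 0.00383). This comparison shares the wild-type cadmium libraries with the previous one.

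Each group held 2 libraries, and leaving out a single one ended several of these calls. A group with 1 library left has no spread of its own, so these fits assume that it varies like the other 3 groups. For cadmium in the wild type, pgp-1 had an adjusted p of 0.0947 without wild-type replicate 2, 0.446 without wild-type cadmium replicate 1 and 0.0594 without wild-type cadmium replicate 2, with log2 changes of 0.93, 0.94 and 1.16. With the filter at a minimum count of 50 its adjusted p was 0.0715. The same 3 omissions gave pgp-9 adjusted p-values of 0.0562, 0.22 and 0.0847, with changes of 1.00, 1.15 and 1.11. Against the wild type with cadmium, the mutant's pgp-1 difference lost its call without wild-type cadmium replicate 1 (adjusted p = 0.187) and without mutant cadmium replicate 2 (adjusted p = 0.137), and pgp-9 without the former (adjusted p = 0.0829). The log2 differences in these fits were -0.82 and -0.78 for pgp-1 and -1.26 for pgp-9. Over all 8 omissions they ran from -1.11 to -0.78 for pgp-1 and from -1.27 to -1.21 for pgp-9, so the sizes stayed near those of the full fit.

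**Figure D3:**
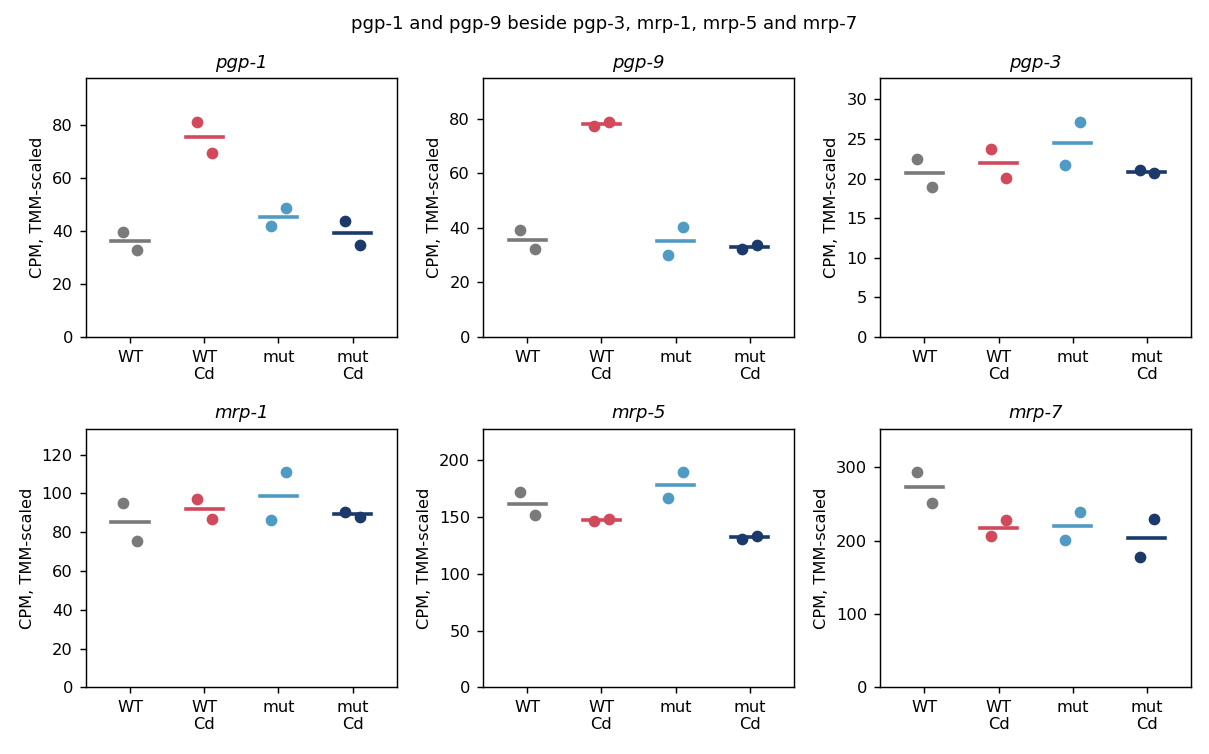
TMM-scaled CPM (y axes, from 0) of 6 genes in the 4 groups, with points for single libraries and lines for means of 2. For pgp-1 and pgp-9 both wild-type cadmium libraries, at 69.4 to 81.5 CPM, lie above the rest. For pgp-3, mrp-1, mrp-5 and mrp-7 no cadmium effect passed the test.

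Markers of the intestine did not pass in any of these comparisons. Their summed CPM was 6076 and 5787 in the wild type, 6797 and 5650 in the wild type with cadmium, 5330 and 5123 in the mutant, and 5511 and 5730 in the mutant with cadmium. Of the 13 tested, 9 were above 0 with cadmium in the wild type, with a median log2 change of 0.08 and 1 at an unadjusted p under 0.05, and DESeq2 and limma-voom called none. With cadmium in the wild type, 13 of 13 neuron markers were above 0 (median 0.29, 2 at an unadjusted p under 0.05), as were 8 of 9 pharynx markers (median 0.32, 3 at an unadjusted p under 0.05), while 14 of 14 oocyte and early embryo markers were below 0 (median -0.23, 1 at an unadjusted p under 0.05, 10 lower in both libraries). EdgeR, DESeq2 and limma-voom called none of these markers there. Of 8 hypodermis markers, 6 were above 0 (median 0.24, range -1.88 to 0.71, 3 at an unadjusted p under 0.05). DESeq2 called 1 of them, and edgeR and limma-voom none. Of all genes tested for cadmium in the wild type, 1816 of 15818 had an unadjusted p under 0.05. Above 0 were 7696 of them, and 21.3% were lower in both libraries. The part of any of these tissues in the pgp results was not tested.

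The other pgp genes did not pass. Including pgp-1 and pgp-9, 10 of the 12 tested pgp genes had a log2 change above 0 with cadmium in the wild type. Their median was 0.28, beside 0.32 for pharynx, 0.29 for neuron, 0.24 for hypodermis and 0.08 for intestine markers. The medians were -0.01 for excretory cell, -0.03 for body muscle, -0.23 for oocyte and early embryo and -1.65 for sperm markers. In the mutant, 4 of 12 pgp genes were above 0 with cadmium, with a median of -0.06. There 9 of 9 pharynx markers were above 0 (median 0.17), as were 9 of 13 neuron markers (median 0.06). The medians there were 0.06 for hypodermis, 0.06 for intestine, 0.02 for excretory cell and 0.01 for body muscle markers. They were -0.03 for oocyte and early embryo and -0.06 for sperm markers. These counts involve changes that did not pass the test, other than those of pgp-1 and pgp-9 in the wild type. The drug transporter pgp-3 had 20.7 ± 2.47 CPM in the wild type and 21.9 ± 2.59 with cadmium, a log2 change of 0.09 with a 95% interval of -0.32 to 0.50. The change of pgp-2 was -0.02, with an interval of -0.31 to 0.26. In the mutant, pgp-5, a gene known to be needed for tolerance of bacterial infection and heavy metals and named here after its values were seen, had 10.4 and 13.2 CPM without cadmium and 18.9 and 16.4 with it. The groups did not overlap, and the change of 0.59 had an unadjusted p of 0.0157 and an adjusted p of 1. Its wild-type values were 10.4 and 11.8 CPM without cadmium and 11.1 and 13.8 with it, which overlap. The gene pgp-6, also named after its values were seen, had 5.74 and 8.79 CPM in the mutant and 10.2 and 11.7 with cadmium. These do not overlap, while its wild-type values of 6.31 and 6.88, and 5.23 and 7.25 with cadmium, do. In the mutant 2 of the 12 pgp genes were higher in both cadmium libraries, or 16.7%, and so were 16.7% of all genes.

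Among the mrp genes, none passed edgeR's test for cadmium in either genotype or between genotypes, and DESeq2 and limma-voom called none. At an unadjusted p under 0.05 there was 1, with cadmium in the mutant. The gene mrp-1 had 95.2 and 75.6 CPM in the wild type and 96.9 and 86.6 with cadmium, a log2 change of 0.10 with a 95% interval of -0.25 to 0.46. In the mutant its values were 86.4 and 111, and 90.6 and 87.7 with cadmium, so the groups overlap in both genotypes. The haem exporter mrp-5 had 167 and 190 CPM in the mutant and 131 and 134 in the mutant with cadmium. These groups did not overlap, and the change of -0.43 had an unadjusted p of 0.00743 and an adjusted p of 1. The most abundant mrp gene, mrp-4, had 599 and 533 CPM in the wild type and 390 and 505 with cadmium, a change of -0.34 with an adjusted p of 0.478. For mrp-7, linked in C. elegans to methylmercury, the values were 293 and 252, and 206 and 229 with cadmium, a change of -0.33 with an adjusted p of 0.478. Of the 8 mrp genes, 8 had a change below 0 with cadmium in the mutant and 5 in the wild type, against 7847 and 8122 of all 15818 genes. This was not particular to mrp genes. In the mutant, 6 of 7 haf, 5 of 5 pmp, 4 of 4 abt, 6 of 8 wht and 8 of 12 pgp genes were also below 0.

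No haf or pmp gene passed edgeR's test for cadmium or genotype, and none was called by DESeq2 or limma-voom. At an unadjusted p under 0.05 there was no haf gene and 1 pmp gene, pmp-5, with cadmium in each genotype. For all 7 tested haf genes, all 8 mrp genes and all 5 pmp genes, the 95% interval of the cadmium effect stayed within 2-fold in either direction in both genotypes, and so did that of the mutant against the wild type with and without cadmium. The gene haf-2 had 197 ± 2.50 CPM in the wild type, 171 ± 22.9 with cadmium, 179 ± 17.3 in the mutant and 166 ± 7.60 in the mutant with cadmium. The gene haf-6, which like haf-2 is known for a role in RNA interference, had 53.2 ± 0.665, 50.7 ± 7.20, 49.7 ± 7.17 and 43.4 ± 0.311 CPM in the same order. Of the pmp genes, pmp-5 had 114 and 105 CPM in the wild type and 87.8 and 81.1 with cadmium. In the mutant it had 106 and 115, and 84.1 and 82.3 with cadmium, so in each genotype both cadmium libraries lay below both others. The changes were -0.38 with an unadjusted p of 0.0141 and an adjusted p of 0.332 in the wild type, and -0.41 with an unadjusted p of 0.00871 and an adjusted p of 1 in the mutant. The change of pmp-2 with cadmium was 0.20 in the wild type and -0.24 in the mutant, with intervals of -0.23 to 0.62 and -0.66 to 0.18.

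**Figure D4:**
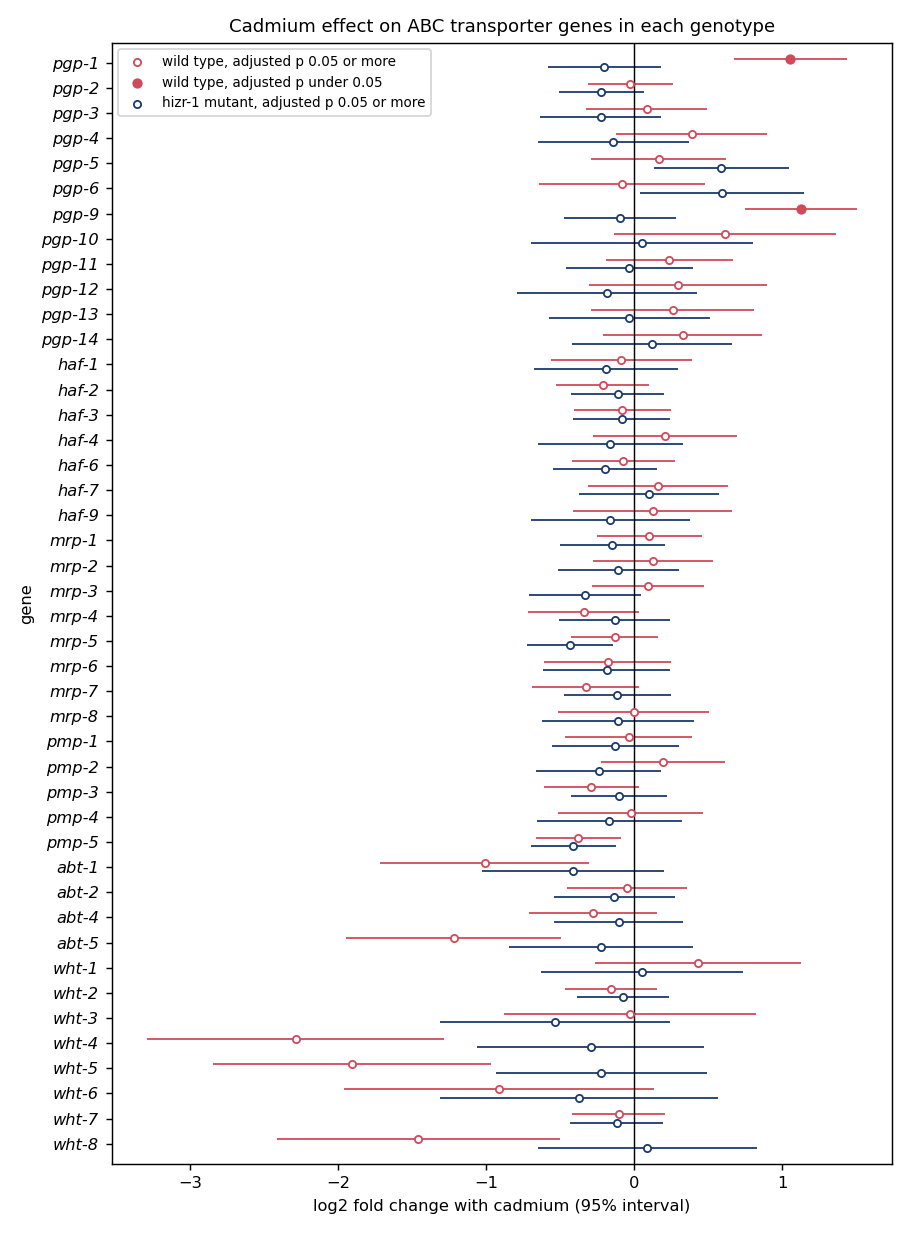
Log2 fold change with cadmium (x axis) of the 44 tested genes (y axis) in the wild type and in the mutant, with 95% intervals. Filled points passed the test at an adjusted p under 0.05, and those are pgp-1 (1.06) and pgp-9 (1.13) in the wild type. Open points did not pass.

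In the mutant, none of the 44 tested genes passed edgeR's test for cadmium, against 0.0316% of all genes, and 4 had an unadjusted p under 0.05, against 1.78%. DESeq2 and limma-voom also called none. The change was below 0 in 37 of the 44 genes, with a median of -0.14, against 7847 of all 15818 genes, with a median of 0.00169. It was also below 0 in 9 of 10 other ABC genes outside the 6 prefixes (median -0.17). The same held for 15 of 20 peroxisomal partners of the pmp genes (median -0.11) and 3 of 6 xenobiotic regulators (median 0.01). Without cadmium, none of the 44 genes passed between mutant and wild type, against 0.126% of all genes, and 6 had an unadjusted p under 0.05, against 10.8%. DESeq2 called 1 there, abt-1, and limma-voom none. For the interaction edgeR called none, against 0.114% of all genes, with 6 at an unadjusted p under 0.05, against 3.24%, while DESeq2 called 2 and limma-voom none. For cadmium averaged over the genotypes none passed, against 0.171% of all genes. There 10 had an unadjusted p under 0.05, against 10.3%, and DESeq2 called 1, wht-4, and limma-voom none.

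Between the genotypes in the presence of cadmium, 7 of the 44 genes passed, 5 higher and 2 lower in the mutant, or 15.9% against 4.26% of all genes tested, of which 3.83% were higher and 0.43% lower. The 2 lower genes were pgp-1 and pgp-9. The 5 higher genes were abt-1, abt-5, wht-4, wht-5 and wht-8, ABCA and ABCG genes of low level. Their mean RPKM over the 8 libraries was between 0.75 and 0.988.

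The gene abt-1 had 67 and 53 reads in the wild type, 24 and 37 in the wild type with cadmium, 154 and 111 in the mutant and 134 and 93 in the mutant with cadmium. All 4 mutant libraries lay above all 4 wild-type libraries, and the CPM values were 2.39 and 2.51, 0.82 and 1.66, 6.02 and 6.06, and 4.30 and 4.79 in the same order. The log2 difference with cadmium was 1.90 ± 0.317 (adjusted p = 0.00699). The gene abt-5 had 2.03 and 3.27, 0.854 and 1.43, 6.25 and 5.68, and 5.04 and 5.21 CPM in the same order, with a difference of 2.18 ± 0.324 (adjusted p = 0.00474). Its wild-type cadmium libraries were again lowest.

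The gene wht-4 had 33 and 45 reads in the wild type, 9 and 8 with cadmium, 97 and 40 in the mutant and 75 and 49 in the mutant with cadmium. Its difference between the genotypes with cadmium was 2.88 ± 0.447 (adjusted p = 0.00544). For wht-5 the reads were 33 and 39, 7 and 13, 87 and 64, and 91 and 58, and the difference was 2.89 ± 0.411 (adjusted p = 0.00406). For wht-8 they were 32 and 27, 7 and 15, 74 and 44, and 88 and 55, with a difference of 2.68 ± 0.412 (adjusted p = 0.00525). In CPM, the mutant libraries of each of these 3 genes lay above every wild-type library with the same cadmium treatment. With cadmium in the wild type, the 5 genes had changes of -1.01 (abt-1), -1.22 (abt-5), -2.29 (wht-4), -1.91 (wht-5) and -1.46 (wht-8), and none passed edgeR's test, while DESeq2 called wht-4 and wht-5. The smallest adjusted p in edgeR was 0.0828, for wht-4. In the mutant the changes were between -0.41 and 0.09. Averaged over both cadmium conditions, 6 of the 44 genes passed, against 6.56% of all genes, of which 5.85% were higher and 0.708% lower. They were these 5, with log2 differences of 1.60 to 2.04, and pgp-9, with -0.63. Without wild-type cadmium replicate 1, none of the 7 genes passed the comparison with cadmium. The differences were then 1.45 for abt-1, 1.83 for abt-5, 2.76 for wht-4, 2.33 for wht-5 and 2.06 for wht-8.

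The 5 genes were set beside markers of sperm. Of 50 markers, 49 were matched and 45 were tested, and their median log2 CPM per library was 1.08 and 2.38 in the wild type, -0.45 and 0.76 in the wild type with cadmium, 3.05 and 2.22 in the mutant, and 2.50 and 2.58 in the mutant with cadmium. The wild-type cadmium libraries were lowest, as for the 5 genes, and the first of them was the lowest of all 8. Within the mutant without cadmium the markers were lower in replicate 2 than in replicate 1, while abt-1, at 6.02 and 6.06 CPM, and wht-5, at 3.40 and 3.496 CPM, were not and the other 3 genes were. The markers' summed CPM was 66.9 and 114 in the wild type with cadmium and 330 and 349 in the mutant with cadmium, against 126 and 296 in the wild type and 456 and 255 in the mutant. Between the genotypes with cadmium, 9 of the 45 were higher, against 3.83% of all genes, and none was lower, with a median difference of 2.47. In that comparison 42 had an unadjusted p under 0.05, against 1774 of all 15818 genes. Both mutant libraries were higher for 43, against 20.8% of all genes. For cadmium in the wild type edgeR and limma-voom called none and DESeq2 called 3. There 18 had an unadjusted p under 0.05, against 1816 of all 15818 genes, and 44 were below 0, with a median of -1.65. Of the markers, msp-79 was at 0 in all 8 libraries, and spe-27 and msp-74 were at 0 in 1. With the markers' median log2 CPM as a covariate in the fit, none of the ABC transporter genes passed for cadmium in the wild type, between the genotypes with cadmium, or between the genotypes on average. The share of all genes called in this fit is not given here, so the loss cannot be read as particular to these genes. The differences between the genotypes with cadmium were then 1.305 ± 0.511 (SE) for abt-1, 1.104 ± 0.436 for abt-5, 1.297 ± 0.597 for wht-4, 1.87 ± 0.620 for wht-5 and 1.74 ± 0.652 for wht-8, with adjusted p-values from 0.33 to 0.407, and -0.41 ± 0.259 for pgp-1 and -0.85 ± 0.269 for pgp-9 (adjusted p = 0.552 and 0.33). The covariate itself differed between these groups, so its part and that of genotype cannot be told apart, and a lost call does not show that the difference was gone. With the covariate, the change of pgp-1 with cadmium in the wild type was 0.72 (adjusted p = 0.423), and that of pgp-9 0.88 (adjusted p = 0.402).

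**Figure D5:**
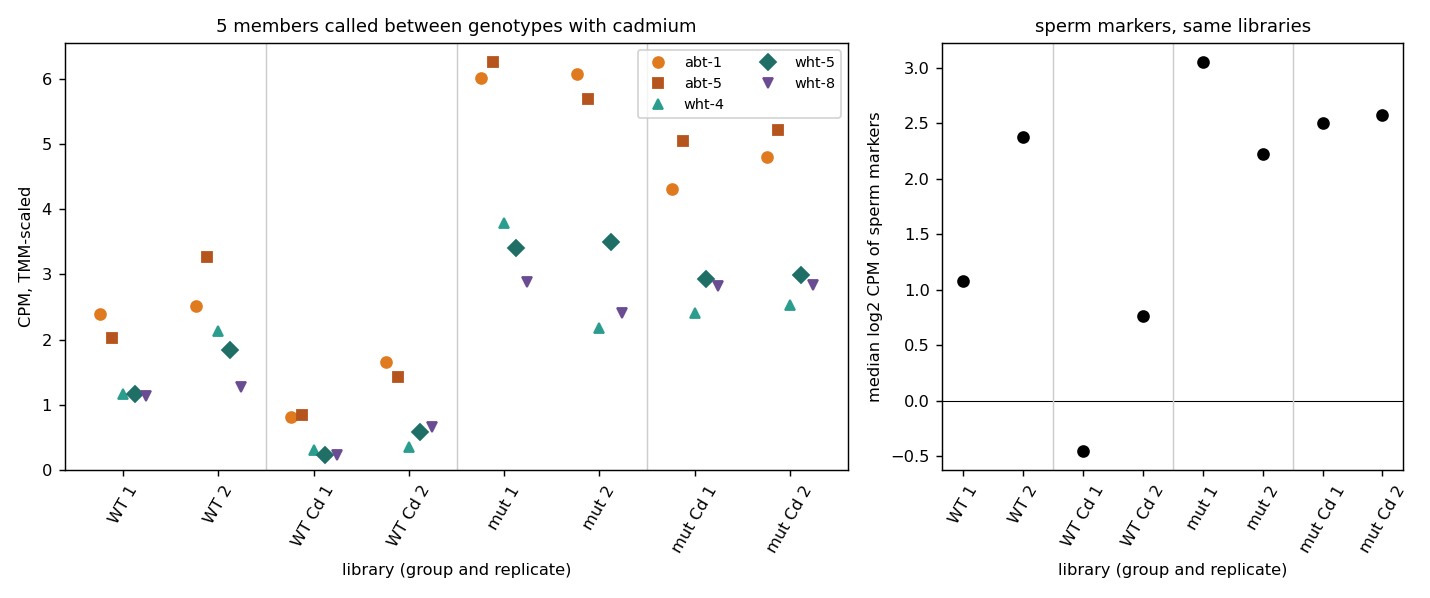
Left, TMM-scaled CPM (y axis, from 0) of abt-1, abt-5, wht-4, wht-5 and wht-8 in each of the 8 libraries (x axis, replicates 1 and 2 of each group). Right, the median log2 CPM of the sperm markers in the same libraries, which is -0.45 and 0.76 in the wild type with cadmium and 2.22 to 3.05 in the mutant libraries.

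The remaining abt and wht genes did not pass edgeR's test in any comparison. The gene abt-4 had 66.8 ± 5.19 CPM in the wild type, 55.1 ± 11.7 with cadmium, 50.3 ± 1.28 in the mutant and 47.0 ± 12.5 in the mutant with cadmium. The gene wht-2 had 87.0 ± 2.01, 78.2 ± 9.70, 82.9 ± 8.55 and 78.8 ± 0.615 CPM in the same order. The gene wht-6, named after its values were seen, had a difference of 1.37 between the genotypes with cadmium, with an adjusted p of 0.186, and DESeq2 called it for the genotype difference averaged over cadmium.

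Counts of genes whose libraries did not overlap were set against all genes tested. For cadmium in the wild type 5 of the 44 were higher and 12 lower in both libraries, or 11.4% and 27.3%, against 18.3% and 21.3% of all genes. In the mutant 2 were higher and 12 lower, or 4.55% and 27.3%, against 16.7% and 14.9%. Between mutant and wild type, 13 were higher and 4 lower without cadmium, or 29.5% and 9.09%, against 19.3% and 19.2%. With cadmium 11 were higher and 7 lower, or 25% and 15.9%, against 20.8% and 15.7%.

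Genes that act beside the transporters were counted in the same fit. Of 10 other ABC genes, among them hmt-1, known for cadmium tolerance in C. elegans, and ced-7, known for the engulfment of dying cells, none passed for cadmium in either genotype or between genotypes, none had an unadjusted p under 0.05, and DESeq2 and limma-voom called none. The cadmium change of hmt-1 was -0.14 in the wild type and -0.06 in the mutant. None of 5 glutathione and phytochelatin genes, 6 xenobiotic regulators and 20 peroxisomal partners of the pmp genes passed in these comparisons either, or was called by DESeq2 or limma-voom. At an unadjusted p under 0.05, no comparison held more than 2 of them. Of 6 metal-response genes, 5 rose with cadmium in the wild type and none passed in the mutant. With cadmium all 6 were lower in the mutant than in the wild type, and 4 of 6 passed the interaction with a sign opposite to the cadmium effect in the wild type. Among the 6 is hizr-1, the mutated gene already used to check the labels, whose log2 difference with cadmium was -2.16 and which did not pass for cadmium in the wild type.

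The genes lie unevenly along the genome. Chromosome X holds 15 of the 46, or 32.6%, against 13.6% of protein-coding genes, including 9 of 13 pgp and 6 of 8 mrp genes and no other subfamily. Neighbours at the same locus include pgp-12, pgp-13 and pgp-14, and pgp-3 and pgp-4, which start 31.1 and 37.3 kb past the end of hizr-1. The pgp-3 gene spans X 11352136 to 11357090 on the plus strand. The strand setting is unknown, so where exons of opposite strands overlap, reads cannot be assigned to one gene with certainty. Exons of mrp-4 share 390 bases with F21G4.1, those of haf-1 share 256 with C30H6.9, and those of wht-2 share 51 with catp-8, and 4 more genes share 12 to 65 bases with a protein-coding gene on the other strand. Neither pgp-1 nor pgp-9 shares exon bases with another gene, and the handling of reads that match related pgp genes was not given.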

How the data were processed

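Per the labels' protocols, whole-animal RNA was purified with Trizol and columns and then treated with Ribo-Zero, which removes ribosomal RNA. The submitters' processing notes name STAR 2.0.4b, Subread, featureCounts 1.45 and the build WBcel235. The strand setting, the annotation release and the treatment of reads with more than 1 match are not given in the sources used here. The deposited count column holds raw read counts per gene, per the file headers. The deposited CPM and RPKM columns were made by the authors from these counts and the exon length, per the file headers, and recomputing them gave the deposited values to within 1e-06. Tests used the deposited counts.

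Coordinates are those of the files. Symbols came from a WBcel235 annotation of Ensembl release 115, in which 46364 of the 46726 identifiers were found and 61.72% of these had the same coordinates. CPM and RPKM in the results use TMM-scaled library sizes, as mean ± SD of 2 libraries. The limit for a gene with no reads was set at 3 counts, or 0.101 to 0.170 CPM by library, and covers counting error only. This limit uses the raw library totals, without TMM scaling.

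All 8 libraries entered 1 fit with 4 group means (edgeR 4.0.16, R 4.3.3, TMM, robust quasi-likelihood F test, 2-sided) after filterByExpr (minimum count 10, minimum total 15). P-values were adjusted by the Benjamini-Hochberg method over 15818 genes in each contrast and called under 0.05. An SE is the size of the log2 change over the square root of its F statistic. The 7 contrasts were cadmium in each genotype, mutant against wild type at each cadmium level, their interaction, and both averages. The fit was also run on simulated data, whose recovery is not reported here, so no result above rests on it. Alternatives were limma-voom (limma 3.58.1), DESeq2 1.42.0, other scaling and filters, a replicate block, a sperm covariate, fits of only the libraries compared, and leaving out each library.

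Genes named were pgp-1, every gene called in any contrast, mrp-1, pgp-3, mrp-5 and mrp-7, and per subfamily the gene with the highest RPKM and those with the smallest p for cadmium in the wild type and for the mean genotype difference. The genes and lists were chosen with earlier results of these data known. The series calls the 2 samples of a group biological samples of parallel cultures, so p-values measure the spread between these cultures.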

Additional observations from a re-analysis of the deposited data

How the results depend on the processing

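With cadmium in the wild type, 2 genes passed; the count was 5 with no filter on low counts, 1 at a minimum count of 50, 0 with the sperm covariate, 4 with only the libraries compared and 4 with DESeq2. Leaving out 1 library gave 0 to 6, with 0 without wild-type replicate 2, wild-type cadmium replicate 1 or wild-type cadmium replicate 2, and 6 without wild-type replicate 1. The change of pgp-1 was 1.1 at a minimum count of 50 (adjusted p = 0.0715), 0.72 with the sperm covariate (adjusted p = 0.423) and 0.93 to 1.19 with 1 library left out. Between the genotypes without cadmium, 0 genes became 3 with no filter, 1 with DESeq2 and 0 to 4 with 1 library left out, the 4 being without wild-type replicate 2. With cadmium, 7 became 0 with the sperm covariate and 0 to 9 with 1 library left out, the 0 being without wild-type cadmium replicate 1. For the interaction, 0 became 2 with no filter, 2 with DESeq2 and 0 to 2 with 1 library left out, with 2 without wild-type replicate 1 and 1 without mutant replicate 1. On average over cadmium, 6 became 0 with the sperm covariate and 6 to 7 with 1 library left out. Cadmium averaged over the genotypes gave 0, which became 5 with no filter, 1 with DESeq2 and 0 to 5 with 1 library left out, the 5 being without wild-type replicate 1. In the mutant the cadmium count was 0 under all 16 alternatives. No direction reversed among the results followed. Over all genes tested, DESeq2 called 199 for cadmium in the wild type, against 45 in the main fit. Between the genotypes without cadmium it called 95, against 20. For the interaction it called 28, against 18, and for cadmium averaged over the genotypes 131, against 27. Counts over all genes under the other alternatives are not given here, so these shifts cannot be read as particular to the ABC transporter genes. The cause of the shifts was not tested.

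The correlations of same-numbered deviations over 15818 genes ran from -0.43 to 0.42 over 6 group pairs. The highest was between the wild type without and with cadmium, and the lowest between the genotypes without cadmium. Between the mutant without and with cadmium it was 0.04. These values cannot show whether same-numbered samples of a genotype were paired. With replicate number as a block, the change of pgp-1 was 1.06 (adjusted p = 0.0459), 2 genes passed for cadmium in the wild type and 7 between the genotypes with cadmium. With 2 libraries a group and reads as few as 7, changes of the low wht genes carried standard errors up to 0.471 with cadmium in the wild type.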

Other observations

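In the wild type with cadmium, 9 genes differed by more than 1.5-fold between the libraries. Of these, 4 were higher in replicate 1, while abt-1, abt-5, wht-5, wht-6 and wht-8 were higher in replicate 2. More than 1.5-fold apart were 6 genes in the wild type, 5 in the mutant and none in the mutant with cadmium. The median fold between replicates was 1.15, 1.23, 1.24 and 1.067 in the wild type, the wild type with cadmium, the mutant and the mutant with cadmium, against 1.204, 1.23, 1.197 and 1.11 for all genes tested. For pgp-14, chosen after its values were seen, replicate 1 of the wild type with cadmium had 41.2 CPM and replicate 2 had 22.97. For haf-4 and haf-9, also chosen after their values were seen, the same libraries had 95.8 and 67.6 CPM, and 94.5 and 61.3 CPM. Their proteins are known to act together in intestinal organelles, and haf-4, at 1.42-fold, is not among the 9. Pharynx markers, summed, were 820.2 and 465 CPM in these libraries and 691 and 430 in the wild type. With cadmium in the wild type, body muscle markers were 5854 and 3360 CPM, neuron markers 684 and 506, and intestine markers 6797 and 5650. Sperm, hypodermis and oocyte markers were higher in replicate 2, at 66.9 and 114, 849 and 1079, and 13560 and 16562 CPM. The part of any of these markers in the differences was not tested.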
